A study of Mus musculus with 18 samples.

Results

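The AIM2-like Ifi200 family is a run of related genes on mouse chromosome 1 that interferons induce and whose proteins bind DNA. The list described here names 10 of them by symbol (Ifi203, Ifi204, Ifi205, Ifi207, Ifi209, Ifi211, Ifi213, Mnda, Mndal and Aim2). A line of their own was found for 9 in both expression tables, out of 55401 genes in the endothelial table and 22612 in the EO771 table. Mnda had no line of that name, and RefSeq gives it as an older symbol of Ifi211, so the listed names stand for 9 distinct genes. RefSeq also gives Mndal as an older symbol of Ifi203, but these have separate lines. The members were chosen by gene name and position, after earlier results of these libraries had been seen, and it is not recorded which measured values drew attention to them. Interferon-induced genes were known to be lower in HECs with tumour, in EO771 cells given 12-HETE and in the interaction of tumour and cell type. For these reasons the listed genes are described with no p-value in those comparisons, and the counts past a threshold there are descriptions that support nothing. The p-values of listed genes in the other comparisons come from the same libraries. They describe a difference beside its spread and support nothing about the family.

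Most proteins of this family pair a pyrin domain, which binds other pyrin domains, with a HIN domain, which binds double-stranded DNA without regard to its sequence. Aim2 is the best-known member: on DNA in the cytosol it assembles with the adaptor Asc (gene Pycard) and Casp1 into an inflammasome, which matures interleukin-1β and opens gasdermin pores. The other members, called AIM2-like receptors, lie largely in the nucleus and have been tied to interferon production through STING, to gene repression and to growth arrest. Type I interferon raises most of them through factors such as Stat2 and Irf9, which bind the interferon-stimulated response element (ISRE) in promoters.

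RNA was sequenced from 18 libraries in 6 groups of 3. Endothelial cells were sorted as CD45-CD31high from female C57BL/6 mice aged 5 to 6 weeks, with PNAd+ cells taken as high endothelial cells (HECs) and PNAd- cells as blood vessel endothelial cells (BECs). BEC normal came from the mammary fat pad, BEC tumour from primary EO771 tumours, HEC normal from inguinal lymph nodes of mice without tumour, and HEC tumour from nodes that the labels call lymph node metastases. EO771, a mouse breast cancer line of C57BL/6 origin, was kept for 48 h in saline with 2% DMSO as vehicle or in 12-HETE, the arachidonic acid product of ALOX12, at 100 nM. The labels give no genotype, and they do not say how many mice stand behind a library or whether the 3 EO771 libraries of a group came from separate cultures, so the spread between replicates may be technical. Cell type and tissue cannot be told apart between HECs and BECs.

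The 9 genes lie between positions 173350879 and 174031810 of chromosome 1 (GRCm38), in the order Aim2, Ifi213, Ifi209, Ifi207, Ifi204, Mndal, Ifi211, Ifi203 and Ifi205. Aim2 and Ifi209 are on the plus strand and the other 7 on the minus strand. The annotated span of Mndal, 173849126 to 173942491, takes in the whole of Ifi211 and runs into Ifi203, with 37 bases of exon shared with Ifi203 on the same strand (0.552% of the exon bases of Ifi203). In all, 155 exon bases of Mndal (4.27%) overlapped exons of Ifi203 or of Gm38050, another annotated gene on the same strand. Reads from such bases could be counted for either overlapping gene or for neither.

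RefSeq promoters, 250 bases before to 50 bases after the start site in GRCm38.p6, were at hand for 8 of the 9 genes; Ifi204 has no entry. The ISRE core, searched on both strands as TTTC, any 2 bases and TTTC again (GAAA, any 2 bases and GAAA on the other strand), occurred in promoters of 6 of these 8 genes, against 3.44% of all 32851 promoters of the same length. A gene counted when any of its promoters held the core, and Ifi203 and Mndal have a second promoter. The backgrounds here and for the next element are shares of promoters, not of genes. The interferon gamma element TTCNNNGAA, which reads the same on both strands, occurred in none of the 8, against 8.3% of all promoters. The 30-base windows around the upstream match are shown for the genes that hold one, because the core and, in all but Ifi207, the bases after it recur from gene to gene. They read 5′ to 3′ on the strand of the gene, and capitals mark the ISRE core.

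Ifi213: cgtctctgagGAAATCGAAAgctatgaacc

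Ifi207: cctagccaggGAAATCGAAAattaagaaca

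Mndal: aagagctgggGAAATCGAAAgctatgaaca

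Ifi211: caaagccaggGAAATTGAAAgctatgaacg

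Ifi203: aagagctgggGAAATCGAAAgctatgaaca

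Ifi205: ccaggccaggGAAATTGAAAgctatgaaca

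These windows lie at chr1:173599326-173599355 for Ifi213, chr1:173741831-173741860 for Ifi207, chr1:173880204-173880233 for Mndal, chr1:173913064-173913093 for Ifi211, chr1:173942508-173942537 for Ifi203 and chr1:174031870-174031899 for Ifi205, all on the minus strand. The core began 35 to 41 bases before the start site in Ifi203, Mndal, Ifi211 and Ifi207, 73 bases before it in Ifi213 and 134 bases before it in Ifi205. The Mndal and Ifi203 windows were identical. Apart from Ifi207, all had the bases gctatgaa directly after the core. This longer run was looked for after the windows had been seen, and it occurred in 7 of the 32851 promoters, all of them of this family, namely the 5 above and the unlisted Ifi206 and Ifi208. The letters of the core were not in the windows of Aim2 and Ifi209. Ifi203 and Mndal each have a second annotated start, and its promoter held a core for Mndal, on the opposite strand, but not for Ifi203.

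The same closeness touches the measurements, since reads from a stretch that several genes share cannot be assigned to 1 of them. Of the 75-base windows in the annotated transcripts of Ifi211, 63.6% occurred in another gene as well, 40.6% in Ifi205 and 23% in Ifi204. The share was 23.1% for Ifi209, all with the unlisted Ifi214, 16.6% for Ifi205, 13.2% for Ifi204, 11.1% for Mndal and 8.07% for Ifi213. It was 5.71% for Ifi203 and 2.8% for Ifi207. Counting family genes only, it was 9.94% for Mndal and 1.53% for Ifi207. No window of Aim2 was shared. Values of Ifi211 are therefore the least certain of the 9, and those of Aim2 rest on sequence of its own.

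**Figure D1:**
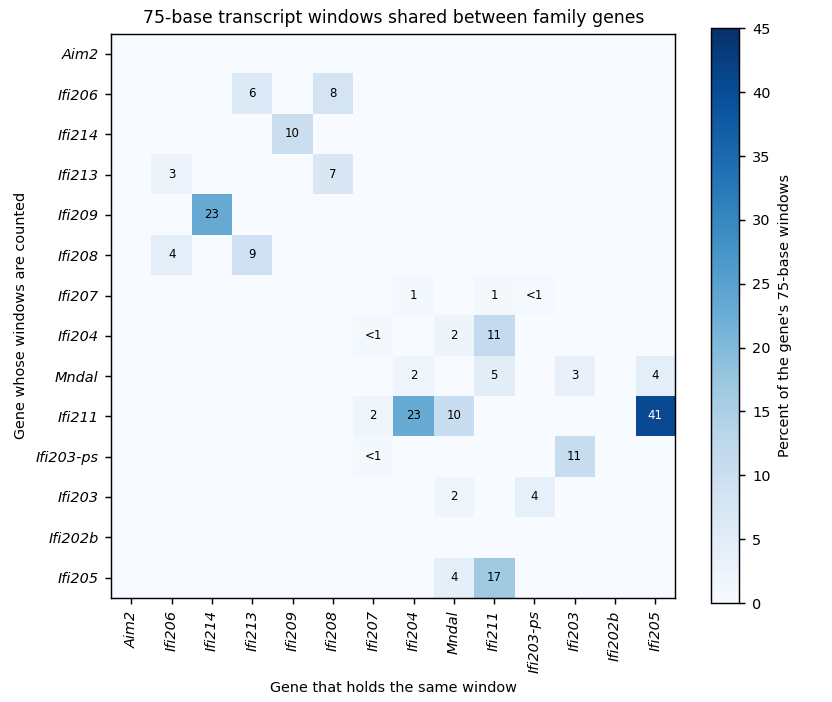
Each cell gives the percent of the 75-base transcript windows of the gene in the row that also occur in transcripts of the gene in the column, on either strand, for the listed genes and 5 unlisted family genes in their order along the cluster. Ifi211 shares 40.6% of its windows with Ifi205 and 23% with Ifi204, Ifi209 shares 23.1% with Ifi214, and the rows of Aim2 and Ifi202b are empty.

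The endothelial libraries summed to 56.4 to 79.4 M and the EO771 libraries to 17.3 to 18.6 M. Low endothelial values lie about 3.8 apart, so that a unit is not a fragment, and dividing by this step left 14.8 to 20.9 M. Endothelial markers summed to 2205 to 3192 CPM (counts scaled to the library total) in every endothelial library, and high endothelial markers to 984 to 3061 CPM in HECs against 13.0 to 17.1 CPM in BECs. Glycam1 and Chst4, which define high endothelium, were at 0 in all BEC libraries.

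The 3 BEC normal libraries stood apart from the other endothelial libraries in ways their labels do not give. The Y-linked genes Kdm5d, Eif2s3y, Uty and Ddx3y reached 148 to 220, 314 to 338, 48.8 to 142 and 167 to 374 normalised counts there, against at most 4.62, 5.07, 4.07 and 16.3 in the other 9 libraries, although the methods name female mice. Xist, the gene of X inactivation, was lower in BEC normal but not absent. It had 8586 to 15480 normalised counts there, against 22960 to 43110 in the other 9 libraries. Nlrp1b, a sensor gene whose copies differ between mouse strains, had 806 to 966 normalised counts in BEC normal and at most 17.6 elsewhere, while Nlrp1a was at 0 in BEC normal and at 47.8 to 333 elsewhere. Ifi202b, an unlisted member of this family that is known to be scarcely expressed in C57BL/6 mice, had 1256, 1045 and 991 normalised counts in BEC normal. It was at 0 in all BEC tumour and EO771 libraries and at 0 to 36.9 in HECs. These genes were picked after their values had been seen. The part that a difference in sex, strain or source plays in results that use BEC normal was not tested. The comparisons of HEC tumour with HEC normal and with BEC tumour do not take their difference from those libraries, but share the scaling and the estimate of spread with them in the fit of 12 libraries. Fitted on only the 6 libraries compared, the log2 fold changes in HECs were −1.32 for Ifi209, −2.03 for Ifi204 and −3.95 for Ifi213, and 8 genes were again past the limits.

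Per kilobase of merged exon, Ifi211 had the highest mean normalised count of the 9 genes in 5 of the 6 groups, from 982 in EO771 vehicle to 4318 in HEC normal. Ifi204, a nuclear DNA sensor that works through STING, came next in 4 of these 5 groups. Aim2 stood behind Ifi211, Ifi204 and Mndal in EO771 vehicle with 328 per kb and first in EO771 12-HETE with 407 per kb. Ifi213 was lowest in every group, at 0.146 to 13.5 per kb. Aim2 made up 2.55% of the summed level per kb in HEC normal and 8.33% in HEC tumour. In EO771 it went from 11.01% with vehicle to 62.6% with 12-HETE, with the level of Ifi211 falling from 33.0% to 21.5% of the sum.

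**Figure D2:**
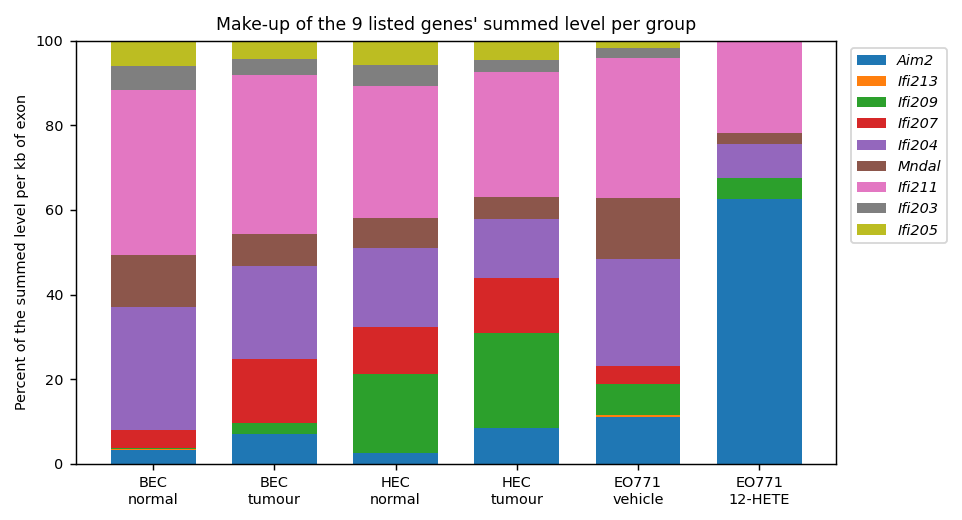
Bars show, for each of the 6 groups, what percent of the summed mean normalised count per kb of exon each of the 9 listed genes made up. Ifi211 is the largest part in 5 groups, Ifi209 is a visible part mainly in HECs (18.5% in HEC normal, 22.5% in HEC tumour), and Aim2 is 62.6% in EO771 12-HETE.

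In HECs, 8 of the 9 listed genes were lower with tumour than without by more than 2-fold, and the HEC tumour libraries lay below all HEC normal libraries in the same 8. All 8 lay past the limits used as a call over the whole table, which 3.21% of the 18511 genes tested passed in the lower direction, and 24.1% of genes had libraries lower without overlap. None was higher, for which the background was 4.58% by call and 24.7% by lack of overlap. Since values of this comparison may have drawn attention to the family, nothing is read from the count. Aim2 was the exception. It had 1171, 1211 and 1304 normalised counts in HEC normal and 1205, 1422 and 1357 in HEC tumour, and the groups overlapped (log2 fold change 0.11 ± 0.09 SE).

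Among the AIM2-like receptors the abundant members had log2 fold changes between −2.29 and −1.31. Ifi204 had 9546, 8540 and 9564 normalised counts in HEC normal and 2204, 2217 and 2384 in HEC tumour, a log2 fold change of −2.02 ± 0.12. Ifi205, whose protein has been tied to control of Asc, had 3518, 3005 and 3260 against 805, 899 and 841 (−1.94 ± 0.10). Ifi203 had 4731, 4301 and 4636 against 978, 884 and 936 (−2.29 ± 0.16). In each case the spread within a group was small beside the gap between groups.

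Mndal had 3475, 3413 and 3653 normalised counts in HEC normal and 853, 892 and 874 in HEC tumour (−2.01 ± 0.18). For Ifi211 the values were 7869, 7435 and 7818 against 2347, 2363 and 2448 (−1.69 ± 0.10). Ifi207, a large nuclear member with a long repeat region, had 5725, 5027 and 4968 against 2003, 2136 and 1957 (−1.37 ± 0.20). The HEC tumour libraries of these 3 genes lay close together and far below those of HEC normal.

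The smallest of these changes was that of Ifi209, within its error of that of Ifi207. It had 9394, 8413 and 9290 normalised counts in HEC normal and 3627, 3690 and 3577 in HEC tumour (−1.31 ± 0.27). Ifi213 was scarce, with 105, 73.3 and 86.0 in HEC normal and 0, 3.95 and 13.3 in HEC tumour, so that the tumour values lay about at or under 11.4, the value of 3 steps taken as the floor (−3.94 ± 1.33). Over the 9 genes the median log2 fold change was −1.94, beside 0.02 over all genes tested. Summed myeloid markers were 487 to 510 CPM in HEC normal and 357 to 376 CPM in HEC tumour. Of these, C1qb was at 0 in both groups, and Adgre1 and C1qa were at 0 in HEC tumour only. General leukocyte markers were 1.92 to 5.10 CPM in HEC normal and 1.39 to 1.80 CPM in HEC tumour. High endothelial markers were 984 to 1336 CPM without and 2232 to 3061 CPM with tumour, and fibroblast and pericyte markers 25.2 to 26.2 and 10.7 to 11.8 CPM. The part of these differences in the result was not tested. In sorted cell pools, fewer cells with a transcript and less of it per cell cannot be told apart.

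**Figure D3:**
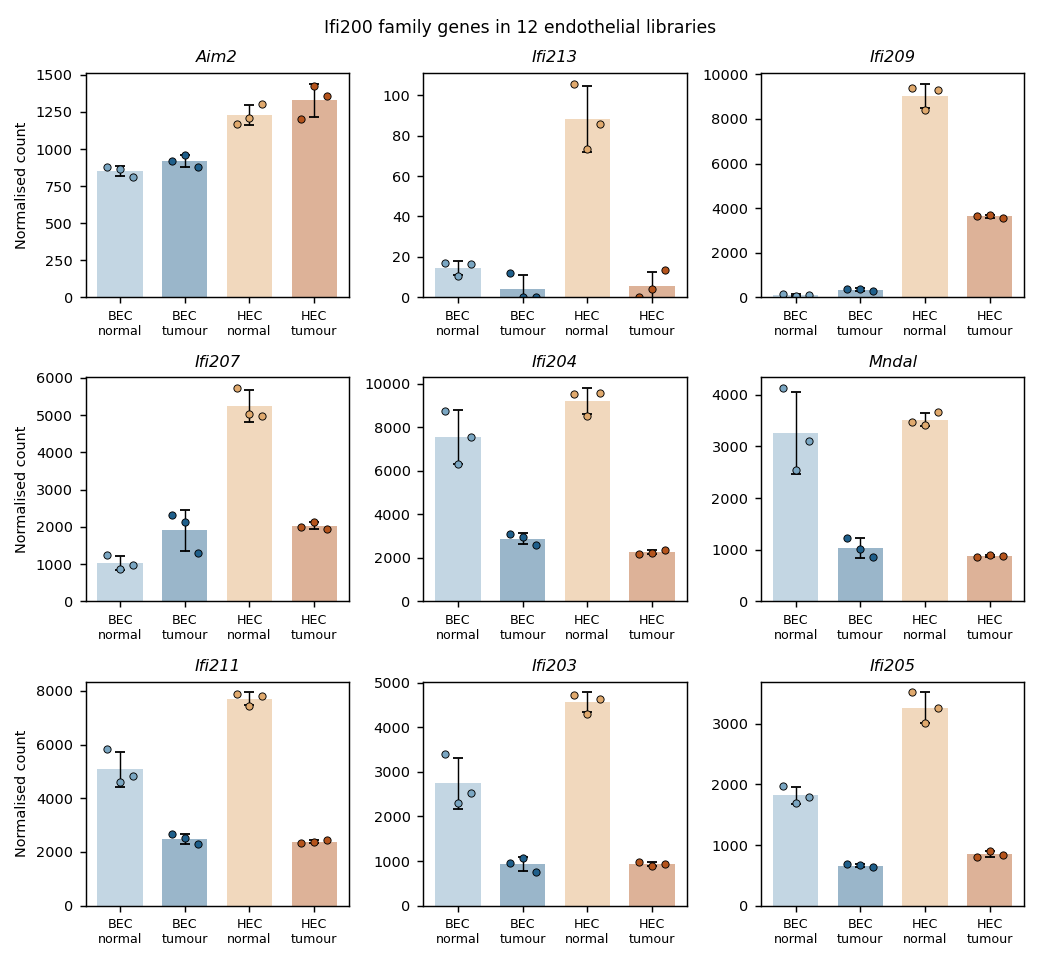
Each panel is a listed gene, with normalised counts on a linear axis from 0. Points are the 12 libraries, bars the mean and error bars the SD of 3 libraries per group. HEC tumour lies below HEC normal without overlap in all panels but Aim2, and Ifi209 and Ifi207 are higher in BEC tumour than in BEC normal while Ifi204, Mndal, Ifi211, Ifi203 and Ifi205 are lower.

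In BECs the family split. Ifi209 was higher in BEC tumour than in BEC normal, and Ifi204, Mndal, Ifi211, Ifi203 and Ifi205 were lower, by DESeq2 with a fold change over 2 and an adjusted p under 0.05. That is 1 gene higher, beside 12.4% of all genes tested, and 5 genes lower, beside 10.8%. Groups did not overlap for 5 genes in the lower direction (background 30.4%) and 2 in the higher (29.1%). All these values use the BEC normal libraries that stood apart.

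Ifi204 had 8771, 6334 and 7563 normalised counts in BEC normal and 3095, 2970 and 2600 in BEC tumour (−1.39 ± 0.12, DESeq2 adjusted p 2.41e-29). Mndal had 4124, 2546 and 3097 against 1227, 1012 and 855 (−1.66 ± 0.18, adjusted p 4.36e-20). The values of both in BEC normal were spread widely, with replicate 1 highest and replicate 2 lowest. Ifi203 had 3399, 2310 and 2523 against 958, 1075 and 764 (−1.56 ± 0.16, adjusted p 6.69e-21), and Ifi205 had 1971, 1698 and 1787 against 684, 667 and 636 (−1.46 ± 0.10, adjusted p 2.50e-49). The call of Ifi211 was at the edge of a 2-fold change, with 5826, 4595 and 4812 in BEC normal and 2654, 2516 and 2293 in BEC tumour (−1.03 ± 0.10, adjusted p 1.01e-24), and the fold was under 2 in edgeR (−0.99).

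Ifi209 and Ifi207 went the other way. Ifi209 had 142, 40.0 and 89.4 normalised counts in BEC normal and 387, 358 and 288 in BEC tumour (1.91 ± 0.28, adjusted p 8.52e-11). Ifi207 had 1236, 881 and 987 against 2315, 2142 and 1290, a fold of 1.85 (0.89 ± 0.20, adjusted p 3.25e-05), and it passed the 2-fold limit only when BEC normal replicate 1 (1.03) or BEC tumour replicate 3 (1.11) was left out. In both genes BEC tumour replicate 3 was the lowest of its group, as it was in Ifi204, Mndal, Ifi211, Ifi203, Ifi205 and Aim2. Myeloid markers were 114 to 137 CPM in BEC normal and 2293, 2187 and 1667 CPM in BEC tumour replicates 1, 2 and 3, with all 12 markers above 0 in BEC tumour, and general leukocyte markers were 2.79 to 5.44 CPM against 67.7 to 108 CPM. Fibroblast and pericyte markers moved the other way, from 806 to 814 CPM in BEC normal to 77.3 to 108 CPM in BEC tumour, and epithelial markers reached 74.1 CPM in BEC tumour replicate 3 against 5.77 and 8.82 CPM in the other two. The part of these cells in the BEC results was not tested.

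Aim2 had 877, 867 and 810 normalised counts in BEC normal and 917, 962 and 877 in BEC tumour (0.11 ± 0.10, adjusted p 0.347), with a 95% interval of the log2 fold change from −0.08 to 0.30. Ifi213 had 16.8, 10.6 and 16.3 against 12.1, 0 and 0, which at this depth did not show a difference (−1.87 ± 1.36, adjusted p 0.245). Without BEC tumour replicate 1 its BEC tumour values are all 0, and it was called lower (−6.52, adjusted p 0.000455).

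The comparison of HEC normal with BEC normal uses the BEC normal libraries that stood apart in Y-linked genes, Nlrp1 genes and Ifi202b. In it Ifi209 stood out. Its HEC normal libraries had 9394, 8413 and 9290 normalised counts and its BEC normal libraries 142, 40.0 and 89.4, a 98.9-fold difference (log2 6.63 ± 0.28, DESeq2 adjusted p 5.65e-122). Ifi207 was 5.06-fold higher in HEC normal (2.34 ± 0.20, adjusted p 1.38e-30). These were the 2 genes called higher, beside 17.1% of all genes tested, and none was called lower (background 15.1%) or lay lower without overlap (34.0%). Aim2 (0.53 ± 0.10, adjusted p 1.03e-07), Ifi211 (0.60 ± 0.10, adjusted p 2.22e-09), Ifi203 (0.73 ± 0.16, adjusted p 1.34e-05) and Ifi205 (0.84 ± 0.09, adjusted p 1.44e-18) were higher in HEC normal by less than 2-fold, without overlap between the groups. Ifi213 was also higher without overlap, at 73.3 to 105 against 10.6 to 16.8, but missed the threshold (2.6 ± 1.3, adjusted p 0.0699). Libraries did not overlap in 7 of the 9 genes, beside 32.7% of all genes tested. Fibroblast and pericyte markers were 806 to 814 CPM in BEC normal against 25.2 to 26.2 CPM in HEC normal, and myeloid markers 114 to 137 against 487 to 510 CPM. General leukocyte markers were 2.79 to 5.44 against 1.92 to 5.10 CPM. The part of other cells, or of the sex, strain or source of BEC normal, in these differences was not tested.

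Ifi204 and Mndal were nearly level between HEC normal and BEC normal, with overlapping libraries. Ifi204 differed by 0.29 ± 0.12 (adjusted p 0.0285) and Mndal by 0.11 ± 0.17 (adjusted p 0.604, 95% interval −0.23 to 0.45), and the sign of Mndal turned without BEC normal replicate 2 (−0.05). Of the 9 genes, 7 passed the adjusted p alone.

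In tumour-bearing mice Ifi209 also separated the cell types, with 3627, 3690 and 3577 normalised counts in HEC tumour against 387, 358 and 288 in BEC tumour (3.4 ± 0.27, DESeq2 adjusted p 4.45e-35). On only these 6 libraries, without BEC normal in the fit, its log2 fold change was 3.38 (adjusted p 2.03e-148). It was the 1 gene called higher in either fit, beside 11.2% of all genes tested, and none was called lower (10.7%). Aim2 was 1.45-fold higher in HEC tumour (0.53 ± 0.09, adjusted p 9.71e-08) and Ifi205 1.28-fold (0.36 ± 0.10, adjusted p 0.000918), both without overlap. Ifi204 was lower by a factor of 1.27 without overlap (−0.35 ± 0.12, adjusted p 0.00928). Without overlap there were thus 3 genes higher (background 30.9%) and 1 lower (31.8%). Myeloid markers were 357 to 376 CPM in HEC tumour and 1667 to 2293 CPM in BEC tumour, fibroblast and pericyte markers 10.7 to 11.8 and 77.3 to 108 CPM, and their part was not tested.

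The remaining 5 genes had overlapping libraries in HEC tumour and BEC tumour. The 95% intervals of their log2 fold changes were −0.31 to 0.48 for Ifi207, −0.59 to 0.11 for Mndal, −0.25 to 0.13 for Ifi211 and −0.32 to 0.32 for Ifi203. These intervals leave out a 2-fold difference in either direction. For Ifi213, at 0 to 13.3 in all 6 libraries, the interval of −2.19 to 3.25 leaves either direction possible.

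The order of the groups took 4 forms among the 9 genes. For Ifi203, Ifi205 and Ifi213 the order of the means was HEC normal, BEC normal, HEC tumour and BEC tumour, with overlap between the last pair for Ifi203 and among all but HEC normal for Ifi213. For Ifi204, Mndal and Ifi211 it was HEC normal, BEC normal, BEC tumour and HEC tumour, with overlap between the first pair for Ifi204 and Mndal and between the last pair for Mndal and Ifi211. For Ifi209 and Ifi207 both HEC groups came first, then BEC tumour and BEC normal, and only HEC tumour and BEC tumour overlapped, for Ifi207. For Aim2 the order was HEC tumour, HEC normal, BEC tumour and BEC normal, with overlap within each cell type and none between HEC normal and BEC tumour.

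The interaction, the log2 fold change of HECs minus the one of BECs, was furthest from 0 for Ifi209 and Ifi207 among the abundant members, which fell in HECs and were higher in BEC tumour. It was −3.23 ± 0.39 for Ifi209 and −2.25 ± 0.28 for Ifi207 on the log2 scale, and these 2 of 9 genes lay past the limits in the lower direction, as did 12.1% of all genes tested, from which nothing is read. It was between −0.73 and −0.35 for Ifi204, Mndal, Ifi211, Ifi203 and Ifi205, 0.00 ± 0.13 for Aim2 and −2.07 ± 1.90 for the scarce Ifi213. The interaction uses the BEC normal libraries.

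**Figure D4:**
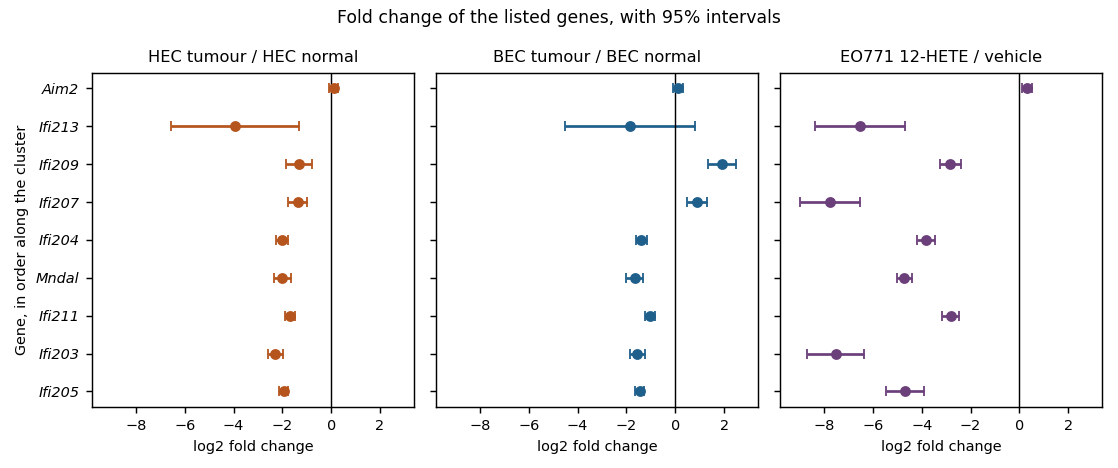
Log2 fold changes of the 9 listed genes, in their order along chromosome 1, in 3 comparisons, with 95% intervals from DESeq2. All but Aim2 lie below 0 in HECs and in EO771 cells, while in BECs Ifi209 (1.91) and Ifi207 (0.89) lie above 0.

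In EO771 cells 12-HETE went with far lower levels of 8 of the 9 genes, and none of their 12-HETE libraries reached the vehicle libraries. The background was 7.79% of the 11602 genes tested for a call lower and 30.5% for libraries lower without overlap, and as in HECs nothing is read from the count. A group of 3 genes fell to a few counts. Ifi207 had 445, 329 and 515 normalised counts with vehicle and 1.03, 2.96 and 1.97 with 12-HETE. From 1297 and 6 counts in all, the ratio of vehicle to 12-HETE was 214 with a 95% counting interval of 98.1 to 584.

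Ifi203 had 478, 299 and 703 normalised counts with vehicle and 1.03, 2.96 and 3.94 with 12-HETE, a ratio of 184 (92.9 to 426). Ifi213 had 70.3, 60.2 and 147 with vehicle and 1 count in each 12-HETE library, a ratio of 91.8 (31.1 to 448). These intervals cover counting error only. The log2 fold changes were −7.75 ± 0.63 for Ifi207, −7.54 ± 0.59 for Ifi203 and −6.53 ± 0.93 for Ifi213.

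The other 5 kept a measurable level. Ifi204 had 2494, 2142 and 3378 normalised counts with vehicle and 199, 192 and 168 with 12-HETE, or 7.01% of the vehicle level (−3.84 ± 0.19). Mndal went from 1470, 1551 and 1700 to 54.4, 63.1 and 61.0 (3.79% left, −4.72 ± 0.16), and Ifi205 from 209, 151 and 253 to 5.13, 11.8 and 6.89 (3.93% left, −4.68 ± 0.40). Ifi211 and Ifi209 kept most of the 8. Ifi211 went from 1650, 1440 and 2168 to 274, 216 and 260 (14.3% left, −2.81 ± 0.18) and Ifi209 from 754, 580 and 1038 to 99.6, 115 and 119 (14.2% left, −2.83 ± 0.23).

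Aim2 did not go with them. It had 1077, 1092 and 1274 normalised counts with vehicle and 1461, 1386 and 1426 with 12-HETE, without overlap and 1.24-fold higher (0.31 ± 0.11). A call higher, which this fold does not reach, was made for 2.38% of all genes tested, and libraries higher without overlap were found for 30.2%. Over the 9 genes the median log2 fold change was −4.68, beside 0.00 over all genes tested. The vehicle libraries were uneven, with replicate 3 highest in all 9 genes and replicate 2 lowest in 7, by up to 2.45-fold between highest and lowest (Ifi213). These differences were small beside the gap to 12-HETE in the 8 genes. Epithelial and tumour cell markers were 2865 to 3783 CPM with vehicle and 1928 to 1983 CPM with 12-HETE, fibroblast and pericyte markers 390 to 613 and 998 to 1037 CPM, and their part in the result was not tested.

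**Figure D5:**
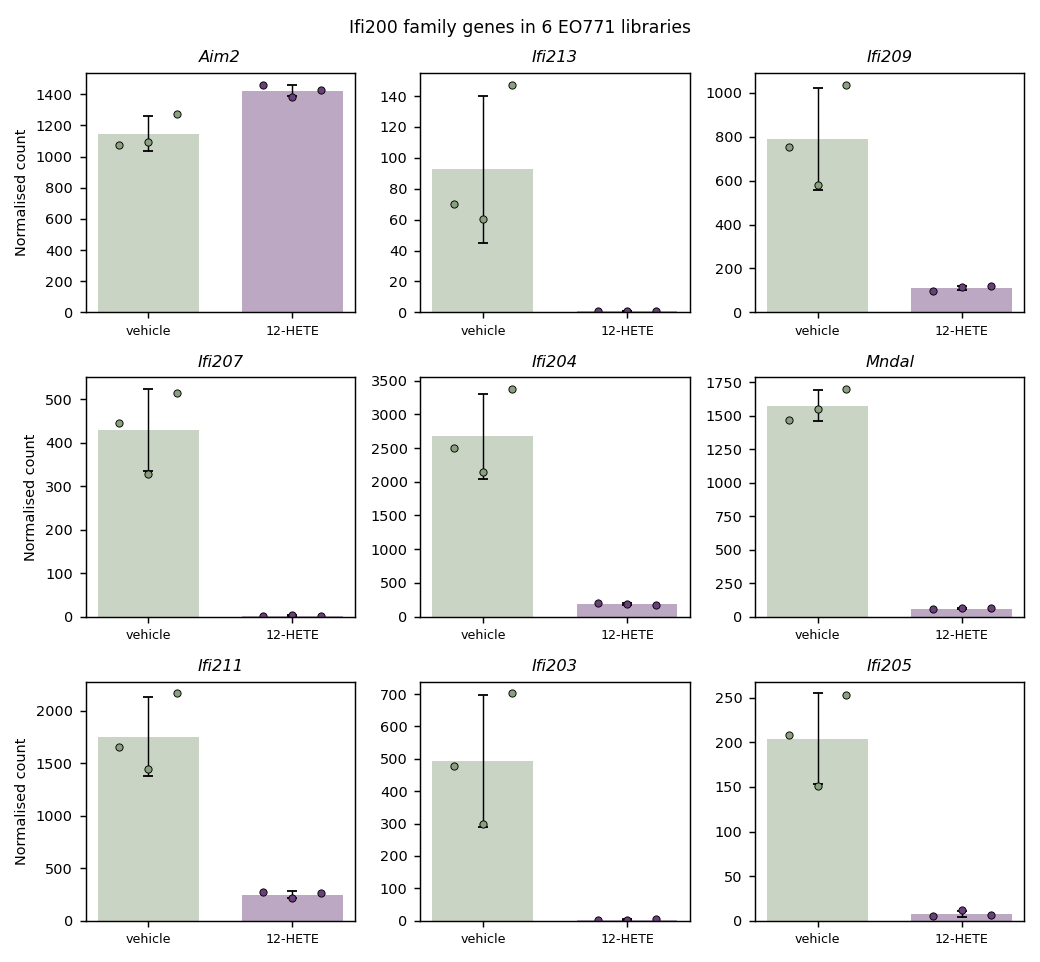
Each panel is a listed gene in the 6 EO771 libraries, with normalised counts on a linear axis from 0. Points are libraries, bars the mean and error bars the SD of 3 libraries. The 12-HETE libraries lie far below vehicle in 8 panels, at 0.984 to 3.94 for Ifi213, Ifi207 and Ifi203, and above vehicle in the panel of Aim2.

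Over the 12 endothelial libraries, Pearson's correlation of log2(normalised count + 1) between members ran from −0.20 (Mndal and Aim2) to 0.996 (Ifi203 and Ifi211). Aim2 was most like Ifi209 (0.90), and Ifi207 and Ifi209 were at 0.88. These are descriptions over 12 libraries of 4 groups. Some paralogs share sequence, and the part of shared reads in these correlations was not tested. Of the pairs named here, none shared a transcript window. The genes outside the list whose pattern was closest to the mean of the standardised listed genes were N4bp1 (r = 0.99), Trim30a (0.98), the unlisted family gene Ifi208 (0.98), Gm4841 (0.98) and Sp140 (0.98). Ifi208 shares 9.04% of its windows with the listed Ifi213, and the part of this in its likeness was not tested.

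The unlisted family genes Ifi206 and Ifi208 were lower in the same comparisons as the listed ones. Ifi206 had 1095, 789 and 877 normalised counts in HEC normal and 102, 70.1 and 86.3 in HEC tumour (−3.42 ± 0.23), and in EO771 it had 162, 80.3 and 287 with vehicle and at most 1.03 with 12-HETE. Ifi208 had 332, 436 and 371 in HEC normal against 61.2, 52.3 and 84.1 in HEC tumour (−2.53 ± 0.34). In EO771 it had 52.4, 31.5 and 77.8 with vehicle and 0 in all 12-HETE libraries, at least 53.5-fold lower against a floor of 3 counts over the group. Ifi214, which shares windows with Ifi209, was uneven in HEC normal at 271, 138 and 22.0 and had 31.2, 18.7 and 59.8 in HEC tumour, with overlap. Ifi202b, whose protein lacks a pyrin domain and holds Aim2 in check, was described above for BEC normal.

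The partners of these proteins changed in mixed directions. Of 20 inflammasome genes, 19 were tested in endothelium and 10 in EO771. In HECs with tumour 2 were higher and none lower, beside 4.58% and 3.21% of all genes tested. They were Nlrp1a (1.61 ± 0.41, adjusted p 0.000486) and Panx1, a channel gene at 0 in HEC normal and at 2.21 ± 3.83 in HEC tumour (SD, n = 3). Panx1 reached the mean of at least 10 needed for a fit through BECs, with means of 1113 in BEC normal and 305 in BEC tumour. Its means in HECs lay under the floor of 11.4, so nothing is read from its call. Casp4, the caspase of the non-canonical inflammasome, had 2889 ± 155 normalised counts with tumour and 5021 ± 113 without (SD, n = 3, log2 fold change −0.80 ± 0.08, DESeq2 adjusted p 2.54e-22), a change under 2-fold. In BECs with tumour 9 were higher and 3 lower, beside 12.4% and 10.8% of all genes tested, with Casp4 higher (2.13 ± 0.09, adjusted p 1.04e-133) and Casp8 lower (−1.13 ± 0.06, adjusted p 1.51e-77). These counts use the BEC normal libraries that stood apart, and the list holds Nlrp1a and Nlrp1b, by which they did so. Myeloid markers were 114 to 137 CPM in BEC normal and 1667 to 2293 CPM in BEC tumour. The part of either in these counts was not tested. With 12-HETE 3 of the 10 inflammasome genes tested were lower and none higher, beside 7.79% and 2.38%, namely Casp4 (−2.01 ± 0.17, adjusted p 3.78e-29), Gsdmd, which forms the pores of pyroptosis (−1.42 ± 0.17, adjusted p 2.23e-15), and Il1rn, the interleukin-1 receptor antagonist (−1.79 ± 0.36, adjusted p 4.92e-06).

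The same shares of all genes tested are the background of the lists that follow. Wherever BEC normal enters, these lists too use the libraries that stood apart. In BECs with tumour the higher myeloid markers of BEC tumour hold for them as well, and the part of either was not tested. Interferon-induced genes were known to be lower in HECs with tumour and with 12-HETE, so counts and p-values of such genes there are descriptions. Of 22 genes of cytosolic DNA sensing by STING, 2 were lower and none higher in HECs with tumour, Zbp1 (−1.78 ± 0.20, adjusted p 7.19e-17) and Irf7 (−1.05 ± 0.14, adjusted p 3.98e-12). In BECs with tumour 1 was higher, the chemokine gene Ccl5 (1.44 ± 0.10, adjusted p 1.34e-47), and 3 were lower. In EO771 19 were tested, of which 1 was higher and 4 lower with 12-HETE, the latter Irf7 (−7.82 ± 0.18), Cxcl10 (−5.82 ± 0.20), Zbp1 (−9.67 ± 0.50) and Ccl5 (−6.12 ± 0.49). The adjusted p-values of these 4 were at most 4.13e-34, and the one of Irf7 was too small to represent. Among 18 genes of interferon receptors and signalling, 4 were lower in HECs with tumour, 3 in BECs with tumour and 6 in EO771 with 12-HETE, and none was higher.

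Interferon-stimulated effectors moved with the family in HECs and EO771 cells. Lower levels of such genes were known there before the list was drawn up, so nothing is read from their counts and p-values. Of 30 genes, 23 were lower and none higher in HECs with tumour, beside 3.21% and 4.58% of all genes tested (median log2 fold change −1.38, beside 0.02 over all genes tested). With 12-HETE 29 of the 30 were lower, beside 7.79% (median −5.12). In BECs with tumour 15 were lower and 3 higher, beside 10.8% and 12.4% (median −0.91), with Rsad2 (2.24 ± 0.07, adjusted p 6.40e-229) and Ifit2 (1.75 ± 0.09, adjusted p 5.00e-79), both antiviral genes, among the higher. Between HEC normal and BEC normal 8 of the 30 were higher and none lower, beside 17.1% and 15.1%. Stat2, which takes part in binding the ISRE, had a log2 fold change of −2.20 ± 0.17 in HECs with tumour (adjusted p 3.10e-36), and in EO771 429 ± 29.5 with 12-HETE against 8718 ± 529 with vehicle (SD, n = 3).

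Genes of the Rb and p53 pathways that family proteins bind or regulate formed the last list. Of 14, 2 were higher and none lower in HECs with tumour, beside 4.58% and 3.21% of all genes tested, the differentiation inhibitors Id2 (1.88 ± 0.12, adjusted p 4.70e-52) and Id3 (1.97 ± 0.14, adjusted p 1.22e-45). In BECs with tumour none was higher and 3 were lower, beside 12.4% and 10.8%, among them Id3 (−2.54 ± 0.14, adjusted p 1.28e-76). With 12-HETE 2 were lower, beside 7.79%, Cdkn1a (−1.33 ± 0.23, adjusted p 4.77e-08) and Id3 (−1.01 ± 0.19, adjusted p 4.28e-07). Of 47 neighbours within 500 kb of the cluster not among the family genes named here, 2 were tested in endothelium and none in EO771. The levels of flanking genes could thus hardly be compared.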

How the data were processed

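For the endothelial libraries the authors deposited values per Ensembl gene, made with STAR 2.6.0c and featureCounts 1.6.2 on GRCm38, which are used here as estimated counts because their low values rise in steps of 3.76 to 3.81. For EO771 the authors deposited raw counts per gene symbol. Whether counting used the strand is not given in the sources used here, and the library kit is named differently in labels and methods. Genes with a mean of at least 10 were fitted with DESeq2 1.42.0 in R 4.3.3 (two-sided Wald test, Benjamini-Hochberg adjustment over all genes tested), all 12 endothelial libraries in 1 fit and the 6 EO771 libraries in another. A call needs an adjusted p under 0.05 and a fold over 2. Normalised counts are DESeq2 values, and ± marks the SE of a log2 fold change or the SD of a level. An exact permutation test of 3 against 3 libraries cannot reach 0.05, so none was used. The fits were tested on simulated counts. The members and gene lists were chosen with earlier results of these data known. Per list and comparison at most 4 genes with the largest Wald statistics could be named. edgeR 4.0.16, TMM scaling, no filter, a replicate block, leaving out each library, fits of 6 libraries, division by the step and a sum over the list were tried as alternatives.

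The labels do not say what equal replicate numbers share. In EO771 the deviations from the group means of equal-numbered vehicle and 12-HETE libraries correlated at 0.12, 0.22 and 0.39, each number best with its own. The numbers may thus pair these libraries, but so few values cannot settle it. The values reported are from the fit without the replicate block, and the fit with it is an alternative. In the endothelial groups the correlations ran from −0.07 to 0.24. In HEC normal against BEC normal each number was also best with its own (0.07, 0.07 and 0.03). Numbers were not treated as pairs in the endothelial values reported. Promoter and alias tables are from RefSeq (GRCm38.p6), exons and transcripts from GENCODE.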

Additional observations from a re-analysis of the deposited data

Results flagged for a closer look

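In Ifi209 and Ifi207 the fold change with tumour went in opposite directions in HECs and BECs. The HEC change minus the BEC change was −3.228 on the log2 scale for Ifi209 and −2.254 for Ifi207. All HEC tumour libraries lay below all HEC normal libraries in both genes, and all BEC tumour libraries above all BEC normal libraries. The lists were drawn up with results of these libraries known, so the difference is given as a description and no test of it is reported. It rests on the BEC normal libraries, which held Y-linked transcripts and Ifi202b, and on BEC tumour libraries with 1667 to 2293 CPM of myeloid markers, and the part of either was not tested.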

How the results depend on the processing

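Of 597 recomputed gene values, 561 kept their direction and side of the thresholds, 8 lost a call, 16 gained one and 12 turned direction. Counting by adjusted p alone moved the counts of listed genes most, to 2 higher in BECs with tumour, 7 higher in HEC normal against BEC normal, 3 higher and 1 lower in HEC tumour against BEC tumour, 6 lower in the interaction and 1 higher in EO771 with 12-HETE. Leaving out 1 library gave 1 to 2 genes higher in BECs with tumour (2 without BEC normal replicate 1 or BEC tumour replicate 3) and 1 to 2 higher in HEC tumour against BEC tumour (2 without BEC tumour replicate 1, where Ifi213 had 5.18). In HEC tumour against BEC tumour Ifi203 lay at 0 and turned to −0.018 in edgeR and with TMM factors, to −0.020 with 6 libraries and to −0.0098 without the filter, and ran from −0.13 to 0.11 over libraries left out. There Ifi213 ran from −0.97 to 5.18 and Ifi207 from −0.14, without BEC tumour replicate 3, to 0.24. Mndal in HEC normal against BEC normal ran from −0.050, without BEC normal replicate 2, to 0.31. The call of Ifi213 in HECs was lost without HEC normal replicate 1 or 3 or HEC tumour replicate 2 (log2 fold change −3.80, −3.96 and −3.73), and Ifi211 fell just under 2-fold in BECs with tumour in 5 alternatives. Ifi213 fell under the filter after division by the step and has no value there. The replicate block in EO771 left 8 genes lower, with Ifi207 at −7.74, and with the block no other call changed in any comparison. Summed as 1 feature, the listed genes gave −1.62 in HECs, −1.01 in BECs and −2.16 in EO771. Depth limits Ifi213 in endothelium and Ifi213, Ifi207 and Ifi203 with 12-HETE, which rest on 3 to 8 counts in all.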

Other observations

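Gm18445, an annotated gene within 500 kb of the cluster that lies outside the family list, followed Ifi202b. It had 205, 226 and 231 normalised counts in BEC normal, 0 in all BEC tumour libraries, at most 4.07 in HEC normal and 0, 3.95 and 24.4 in HEC tumour. It was named after its values had been seen. Of the 75-base windows of Ifi207, 1.27% also occurred in Gm18445. A pseudogene of the family, Ifi203-ps, had 353, 307 and 304 normalised counts in HEC normal and 134, 160 and 137 in HEC tumour, and 182, 108 and 166 in BEC normal against 29.7, 49.1 and 22.7 in BEC tumour. It shares 10.8% of its 75-base windows with Ifi203.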
